A study of Mus musculus with 2 samples.

Results

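The cells described here are Dmkn-positive cells from mouse cultures of myeloid-derived suppressor cells (MDSC), the immature myeloid cells that restrain T cell responses. Single-cell RNA sequencing covered 1 culture with the vehicle DMSO and 1 culture with 50 nM Selinexor, an inhibitor of the nuclear export receptor exportin 1. Both cultures were grown in vitro for 4 days with IL-6 and GM-CSF at 40 ng/mL each, tagged, sorted for live CD11b+ cells, and pooled before droplet capture. Each group holds 1 library, and the sources used here do not name the animals, strain or age. The cells were selected on measured values. The rule took cells with at least 200 genes, under 10% mitochondrial UMIs (unique molecular identifiers, counted molecules), at least 2000 UMIs and at least 2 UMIs of Dmkn. It left out cells with 5 or more UMIs of the cycle genes Mki67 and Top2a together or 5 or more of Fn1, and cells with more than 1 UMI of the 3 C1q genes or of Pf4, Maf and Stab1 together. Primary granule genes (Mpo, Elane, Prtn3, Ctsg) had to stay under 0.5% of UMIs and specific granule genes (Camp, Ltf, Ngp) under 1%. It found 157 of 3773 cells in all, 150 of 1784 in the DMSO library and 7 of 1989 in the Selinexor library.

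Dmkn encodes dermokine, a secreted protein best known from the upper layers of the epidermis, where its gene lies beside those of suprabasin (Sbsn) and Krtdap. Stefins of the A family are small cytosolic inhibitors of cysteine proteases such as the cathepsins, and the mouse carries a cluster of them that myeloid cells of the neutrophil branch transcribe at high level. Cultures with GM-CSF and IL-6 can give a mixture of neutrophil-branch and monocyte-branch cells, and these are told apart by granule genes and late neutrophil genes on one side and by genes such as Ccr2, F13a1 and Csf1r on the other.

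The genes that carry the name of these cells lie in 2 neighbourhoods of the mm10 genome. In GENCODE's annotation of that build, Dmkn lies at chr7:30763756-30781063 on the plus strand, between Sbsn at chr7:30751471-30756134 and Krtdap at chr7:30787896-30791097. The stefin A cluster lies on chromosome 16, among them Cstdc4 at chr16:36184212-36188111, Csta3 at chr16:36210403-36217788, Csta2 at chr16:36221468-36257444 and Cstdc5 at chr16:36359382-36367748. Trf lies at chr9:103204001-103230444 and Rcn3 at chr7:45082913-45092221. The stretches just before the start sites show what the members of each neighbourhood share. In the stefin stretches, from RefSeq's promoters of build GRCm38.p6, the capitals mark CCTTTAAAACCC.
Csta3 (chr16:36210294-36210365, plus strand): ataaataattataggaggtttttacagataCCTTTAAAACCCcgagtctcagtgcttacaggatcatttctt
Cstdc4 (chr16:36184151-36184211, plus strand): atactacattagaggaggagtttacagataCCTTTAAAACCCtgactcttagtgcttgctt
Cstdc5 (chr16:36367570-36367611, minus strand): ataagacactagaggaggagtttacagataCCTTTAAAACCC
Stfa2 (chr16:36408364-36408424, minus strand): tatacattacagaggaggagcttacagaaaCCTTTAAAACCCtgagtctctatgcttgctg
Stfa2l1 (chr16:36156746-36156810, plus strand): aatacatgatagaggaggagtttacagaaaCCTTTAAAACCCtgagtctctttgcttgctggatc

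Searched on both strands, these letters stood in the promoter windows of 7 of the 9 stefin A genes in the table, and in 10 of all 32851 windows of the same length, a share of 0.0304%. The windows of Csta1 and Csta2 did not hold them. No word of 12 letters stood in more stefin windows, but 6 words stood in 7 of them, and this one was taken because it was the rarest over all windows. It was first noticed by reading the sequences, so its low share is a result of the choice, and a match describes letters and not a binding site. The next stretches are shown because Dmkn and both its neighbours hold TGAGTCA, printed in capitals.
Dmkn, upstream start (chr7:30763637-30763703, plus strand): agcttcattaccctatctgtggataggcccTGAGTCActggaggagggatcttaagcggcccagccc
Dmkn, downstream start (chr7:30776293-30776359, plus strand): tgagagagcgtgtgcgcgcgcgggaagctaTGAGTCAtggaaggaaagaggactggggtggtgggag
Sbsn (chr7:30751435-30751471, plus strand): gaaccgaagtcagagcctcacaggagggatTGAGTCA
Krtdap (chr7:30787794-30787860, plus strand): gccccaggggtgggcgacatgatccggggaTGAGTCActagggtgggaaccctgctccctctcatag

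All 5 windows of these 3 genes held TGAGTCA, searched on both strands, against 1709 of 32851 windows, or 5.20%. The upstream Dmkn stretch lies in the overlapping windows of neighbouring start sites, so its site is counted more than once. This motif, too, was chosen after reading the sequences.

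Depth was high in these cells. The 150 DMSO cells had a median of 10425 UMIs and 2535 genes, with 2.48% mitochondrial and 17.5% ribosomal protein UMIs. The other 1279 DMSO cells that passed the same quality limits had a median of 9040 UMIs and 2391 genes. The 7 Selinexor cells had a median of 12438 UMIs and 2826 genes. A median of 92.5% of the tag counts in the DMSO cells belonged to 1 tag, and 0 barcodes occurred in both libraries. With 1 library per group no test is possible, so folds and levels below are descriptions. Levels are summed gene UMIs scaled to the summed total of the same cells (CPM), differences are on the log2(CPM + 1) scale, and intervals are 95% exact intervals for counting error alone.

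The cells came almost wholly from the DMSO library. They made up 10.5% of the 1429 DMSO cells past the quality limits (exact interval 8.96% to 12.2%) and 0.591% of the 1184 Selinexor cells (0.238% to 1.21%). The other limits of the rule enter these shares and fall unequally on the libraries. By Fn1 the rule left out 81 DMSO and 405 Selinexor cells. With Dmkn as the only limit beyond quality, 269 DMSO cells (18.8%) and 39 Selinexor cells (3.29%) had at least 2 UMIs. The ratio of these shares was smaller than under the full rule, while their difference in percentage points was larger. Among the cells that passed every limit other than Dmkn, they were 150 of 694 (21.6%) and 7 of 359 (1.95%). In the DMSO library 468 of those 694 cells had 0 Dmkn UMIs, 76 had 1, 39 had 2, 34 had 3, 23 had 4 and the highest cell had 17. In the Selinexor library 331 had 0, 21 had 1, 5 had 2, 1 had 3 and 1 had 4. Since the counts run on without a gap, the minimum of 2 UMIs cuts a range and does not mark off a separate set.

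**Figure D1:**
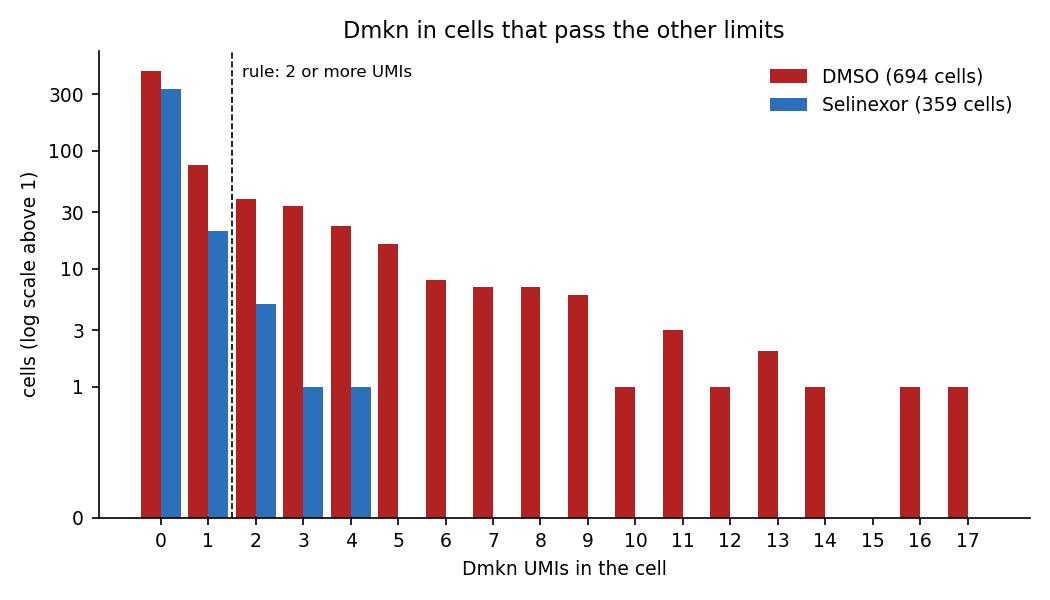
Cells that pass every limit other than Dmkn, by their number of Dmkn UMIs (x axis), as cell counts on an axis that is logarithmic above 1 (y axis), in the DMSO (694 cells) and Selinexor (359 cells) libraries. DMSO cells run from 0 to 17 UMIs and Selinexor cells from 0 to 4, and the dashed line marks the minimum of the rule.

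The lower Dmkn level of the Selinexor library was not limited to the cells that the rule takes. Dmkn stood at 97.9 CPM over all DMSO cells past the quality limits (92.7 to 103) and at 18.0 CPM over the Selinexor cells (15.7 to 20.6). In cycling cells it was 72.2 CPM in the DMSO and 19.4 CPM in the Selinexor library, and in Fn1 cells 73.0 and 19.2 CPM. Primary granule cells had 48.4 CPM (36.0 to 63.6) and 60.1 CPM (36.7 to 92.8), so there the intervals overlapped. In the DMSO library the level differed between classes beyond counting error, from 27.9 CPM in specific granule cells to 143 CPM (133 to 154) in cells that pass the other limits. The lowest value was 6.08 CPM (0.736 to 22.0) in the 27 Selinexor cells with more than 1 C1q UMI. It rests on 2 Dmkn UMIs in 1 cell, and its interval covers the 19.4 CPM of Selinexor cycling cells. Of 183 non-cycling DMSO specific granule cells, 11.5% had a Dmkn UMI at a median of 5946 UMIs per cell. RNA free in the suspension and low transcription in that class were not tested. The 150 cells held 687 of the 1355 Dmkn UMIs in the DMSO library, or 50.7%. A further 119 DMSO cells with at least 2 Dmkn UMIs were set aside by other limits, 82 of them by the cycle genes, 20 by Pf4, Maf and Stab1, 18 by Fn1, 14 by specific and 12 by primary granule genes and 8 by C1q. In the Selinexor library 32 of 39 such cells were set aside, most often by Fn1 (19) and the cycle genes (17).

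Among named genes, the most abundant transcripts of the DMSO Dmkn-positive cells included S100 and stefin A genes beside widely expressed genes such as Actb. This list leaves out unnamed genes and those of mitochondria, ribosomal proteins and haemoglobin. Ribosomal protein genes were recognised by Rpl and Rps symbols alone, so Fau stayed in. The unnamed gene Gm42418 alone took 6.34% of the UMIs of these cells, more than S100a8. It took 6.69% in the other cells and 13.7% in cells with C1q UMIs that are otherwise within the limits. S100a8 (57410 CPM) and S100a9 (51740 CPM), the subunits of calprotectin, led the list, followed by the ferritin heavy chain gene Fth1 (22590 CPM), Actb, Tmsb4x and S100a6. Cstdc4 was seventh in the list at 7601 CPM, and Ifitm1, Ftl1, Malat1, Fau, Cstdc5 (3311 CPM), Tpt1, Cyba and Wfdc21 completed the 15 genes of this list. S100a8 and S100a9 were no higher than in the other cells, which had 59790 and 59280 CPM.

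The label comes with 5 markers. They were chosen with earlier results of these data known, so their levels describe the cells and do not test the label. Dmkn itself, which the rule used, stood at 438 CPM in the cells and 54.4 CPM in the other DMSO cells. Csta2, a stefin A gene, stood at 1952 against 923 CPM, a difference of 1.08 (1.02 to 1.14), and 125 of 150 cells had a UMI of it. Trf, which encodes the iron carrier transferrin, stood at 375 against 195 CPM, a difference of 0.94, with a UMI in 115 of 150 cells. Csta3 was at 37.0 against 11.6 CPM, and Rcn3, a calcium-binding protein of the secretory pathway, at 14.0 against 6.44 CPM. Both rest on few molecules, 58 UMIs in 28 cells for Csta3 and 22 UMIs in 17 cells for Rcn3, so most cells of the group had no UMI of either.

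The cells were rich in stefin transcripts on the median but not each of them. All stefin A genes together took a median of 0.784% of a cell's UMIs, with quartiles of 0.196% and 2.15% and a highest value of 9.64%. The median was 0.334% in cells that pass every other limit with 0 Dmkn UMIs (Dmkn-0 cells, 468), 0.330% in Pf4 cells (28) and 0.0410% in C1q cells (47). The last 2 classes are cells with 2 or more UMIs of the named genes and otherwise within the limits. A UMI of any stefin A gene was found in 147 of 150 Dmkn-positive cells, but also in 43 of 47 C1q cells at a median of 3 UMIs, so detection alone says little. The word stefin-rich holds for the median of the group, and its lower quartile of 0.196% lay below the median of Dmkn-0 cells.

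Epidermal origin was checked because Dmkn is an epidermal gene. Krt5, Krt14, Krt8, Krt18, Krtdap, Ivl, Lor, Sprr1a, Cnfn, Evpl, Ppl and Dsp were all at 0 UMIs in the DMSO cells, which allows up to 1.91 CPM each, and Epcam had 1 UMI. Cdh1, which encodes E-cadherin, had 253 UMIs in the cells (161 CPM) and 126 CPM in the other cells, and it reached 368 CPM in C1q cells. Jup, a junction protein gene, stood at 21.7 against 9.61 CPM, a difference of 1.10 (0.58 to 1.73). Sbsn, the neighbour of Dmkn, had 14 UMIs, against 26 UMIs in the 1279 other cells, or 8.93 against 2.12 CPM. Of 17 epithelial and cornification genes 12 were at 0 and 2 had enough UMIs to be measured. Defining genes of T, B, NK, erythroid and eosinophil cells were at or near 0, with summed levels of 1.91, 12.1, 0, 15.3 and 3.19 CPM for those lists.

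Against all other DMSO cells past the quality limits, few genes stood higher. Of 9256 genes with at least 50 UMIs over both sides, 21 (0.227%) stood 2-fold or more above and 714 (7.71%) 2-fold or more below, and the median difference was −0.13. Saa3, an acute phase serum amyloid gene, stood at 1246 against 575 CPM, a difference of 1.11 (1.04 to 1.19). Pld4, a nuclease of the endolysosome, stood at 115 against 53.8 CPM, a difference of 1.08. Smaller differences followed for the chemokine gene Ccl4 (0.97), Gchfr (0.91), the matrix proteoglycan gene Vcan (0.86), Cdc42ep2 (0.79), Svbp (0.78), the monocyte chemokine receptor gene Ccr2 (0.78), the neonatal Fc receptor gene Fcgrt (0.77) and Mgll (0.76). Most genes at the low end are fixed by the rule. Among the 15 lowest, Camp, Ltf, Ngp, Ctsg, Elane, Mpo and C1qb are in it, and Prc1, Plk1, Kif11, Nusap1, Hist1h3c, Hist1h1b and Hist1h2ab follow the cycle genes that it removes. The remaining one was Ccl17, a dendritic cell chemokine gene, at 8.93 against 216 CPM, a difference of −4.45.

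Most stefin A genes were higher in the Dmkn-positive cells than in the other cells. At a threshold of 1.5-fold, 5 of 8 measured stefin A genes were higher and 0 lower than in the other cells, with a median of 0.72, where 2.41% of all genes were 1.5-fold higher and 17.5% lower. Cstdc4 stood at 7601 against 4171 CPM, a difference of 0.87. Stfa2l1 stood at 1515 against 860 CPM, a difference of 0.82, and Cstdc5 at 3311 against 2237 CPM, a difference of 0.57. Stfa1 lay the other way, at 646 against 811 CPM, a difference of −0.33, and Stfa3 was near even at 246 against 234 CPM. The genes share sequence, which limits how far they can be told apart. Of all 50-base windows of the transcripts, 25.1% in Cstdc5, 22.5% in Stfa1 and 20.4% in Csta2 also occur in another stefin A gene, against 7.1% in Cstdc4 and 0 in Csta3 and Stfa3.

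Dmkn-0 cells are the closest comparison, since they differ from the group by the rule only in Dmkn. Of 6524 measured genes, 11 (0.169%) stood 2-fold or more above in the Dmkn-positive cells, Dmkn included, and 144 (2.21%) 2-fold or more below. Of the stefin A genes 5 of 8 were 1.5-fold higher, median 0.67, where 2.68% of all genes were. Cstdc5 led with 3311 against 1353 CPM, a difference of 1.29 (1.23 to 1.35), and Stfa2 followed with 860 against 440 CPM, 0.96 (0.86 to 1.08). Saa3 stood at 1246 against 582 CPM, a difference of 1.10 (1.01 to 1.19). Ccr2 stood at 260 against 142 CPM, 0.87 (0.67 to 1.07). Acadl, which encodes a long-chain acyl-CoA dehydrogenase (0.88), the mevalonate pathway gene Fdps (0.87) and the clathrin light chain gene Cltb (0.96) were also among the 8 highest. Trf was close in both, at 375 and 298 CPM, a difference of 0.33.

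Some genes of monocytes were higher than in Dmkn-0 cells. Of 12 measured monocyte genes 3 were at least 1.5-fold higher (Ccr2, the coagulation factor gene F13a1 at 90.5 against 53.0 CPM and Ms4a6c at 81.0 against 50.7 CPM) and 1 was lower, where 2.68% of all genes were higher and 10.0% lower. Their median difference was 0.34, and it was 0.00 when cells with late neutrophil, Ccl17 or MHC class II UMIs were left out on both sides, a comparison described further on. The monocyte surface antigen gene Ly6c2 differed by 0.14 and the growth factor receptor gene Csf1r by −0.09. Ms4a4c and Ace were at 0 UMIs in the Dmkn-positive cells.

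Late neutrophil genes lay the other way. Of 18 measured genes 8 were at least 1.5-fold lower than in Dmkn-0 cells and 0 higher, with a median of −0.45, where 10.0% of all genes were 1.5-fold lower. Mmp9, the gelatinase gene, stood at 18.5 against 153 CPM, a difference of −2.98. Cxcr2, the neutrophil chemokine receptor gene, stood at 46.5 against 155 CPM, −1.71. Retnlg had 3 UMIs in all, 1.91 against 42.2 CPM, and Ly6g, the defining surface antigen of mouse neutrophils, had 1 UMI. S100a8 and S100a9 differed by −0.02 and −0.03.

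Antigen presentation and dendritic cell genes were also lower than in Dmkn-0 cells. Of 7 measured MHC class II genes 6 were at least 1.5-fold lower, with a median of −1.31, where 10.0% of all genes were 1.5-fold lower. H2-Aa stood at 75.9 against 392 CPM, −2.35, and Cd74, the invariant chain gene, at 720 against 1792 CPM, −1.31. All 5 measured dendritic cell genes were lower, among them Ccl17 (−5.53), Ccl22 (−4.12) and Mgl2 (−2.20), and so was Plet1 (−2.63). Ccl17 was found in about as many Dmkn-0 cells (4.70%) as Dmkn-positive cells (4.00%), so its high level comes from a small number of cells with many UMIs. The basophil protease gene Mcpt8 had 0 UMIs against 254, all of the latter from 0.427% of the Dmkn-0 cells, which puts it at least 43.4-fold lower when 3 counts over the group are taken as the floor. Of 9 measured macrophage genes 0 were 1.5-fold higher and 1 was lower (Gpnmb, 3.19 against 41.2 CPM), a share near the 10.0% of all genes.

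Most genes of the endoplasmic reticulum list lay above 0 against Dmkn-0 cells, but not against Pf4 cells. Of 15 measured chaperone and unfolded protein response genes 14 lay above 0, with a median of 0.51 where the median of all genes was −0.06, and 4 were 1.5-fold higher, where 2.68% of all genes were. The median was 0.27 when cells with late neutrophil, Ccl17 or MHC class II UMIs were left out. Against C1q cells 10 of 14 measured genes lay above 0, with a median of 0.29. Against Pf4 cells 4 of 14 lay above 0 and 10 below, with a median of −0.14 where the median of all genes was −0.13. The 4 genes 1.5-fold higher than in Dmkn-0 cells were Sdf2l1 (196 against 109 CPM, 0.84), Creld2 (0.79), the disulfide isomerase gene Pdia6 (300 against 192 CPM, 0.65) and Herpud1 (0.59). Calr, the calreticulin gene, stood at 938 against 630 CPM, 0.57, and Hspa5, which encodes the chaperone BiP, at 521 against 399 CPM, 0.38. Xbp1 was even, at −0.07. Of 4 measured genes of the calcium-binding family that Rcn3 belongs to, 0 were 1.5-fold higher or lower, with Calu at 0.53 and Rcn3 at 0.57 (−0.26 to 1.47). None of the 9 measured cathepsin and legumain genes, the targets of stefins among them, reached 1.5-fold either way against Dmkn-0 cells, and their median was 0.07. Against Pf4 cells 5 of 9 were 1.5-fold lower and 0 higher (median −0.62), where 14.7% of all genes were lower. Against C1q cells 4 of 9 were lower and 1 higher (median −0.42), where 28.3% of all genes were lower.

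The Dmkn-0 cells were shallower, with a median of 5416 UMIs, and hold several kinds of cell, so 2 further comparisons were made after these values had been seen. Against only the 356 Dmkn-0 cells that reach the lowest depth of the group, with a median of 7259 UMIs, the stefin A median was 0.64, Cstdc5 differed by 1.21, Saa3 by 0.97 and Ccr2 by 0.73. When cells of both sides with any UMI of 8 late neutrophil, Ccl17 or MHC class II genes at 2000 UMIs were left out, 119 Dmkn-positive and 199 Dmkn-0 cells remained. Between these the stefin A median was 0.56, Cstdc5 differed by 0.99, Saa3 by 0.72 and Ccr2 by 0.49. The monocyte median dropped from 0.34 to 0.00 and that of the endoplasmic reticulum genes from 0.51 to 0.27. The genes at least 2-fold lower dropped from 144 to 22, and Plet1 changed sign from −2.63 to 0.55. With fewer cells, fewer genes reach the count minimum, which by itself lowers such a count. With no cells left out, a minimum of 200 UMIs over both sides took it from 144 to 29. How much of the drop to 22 comes from the kinds of cell left out was not tested.

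**Figure D2:**
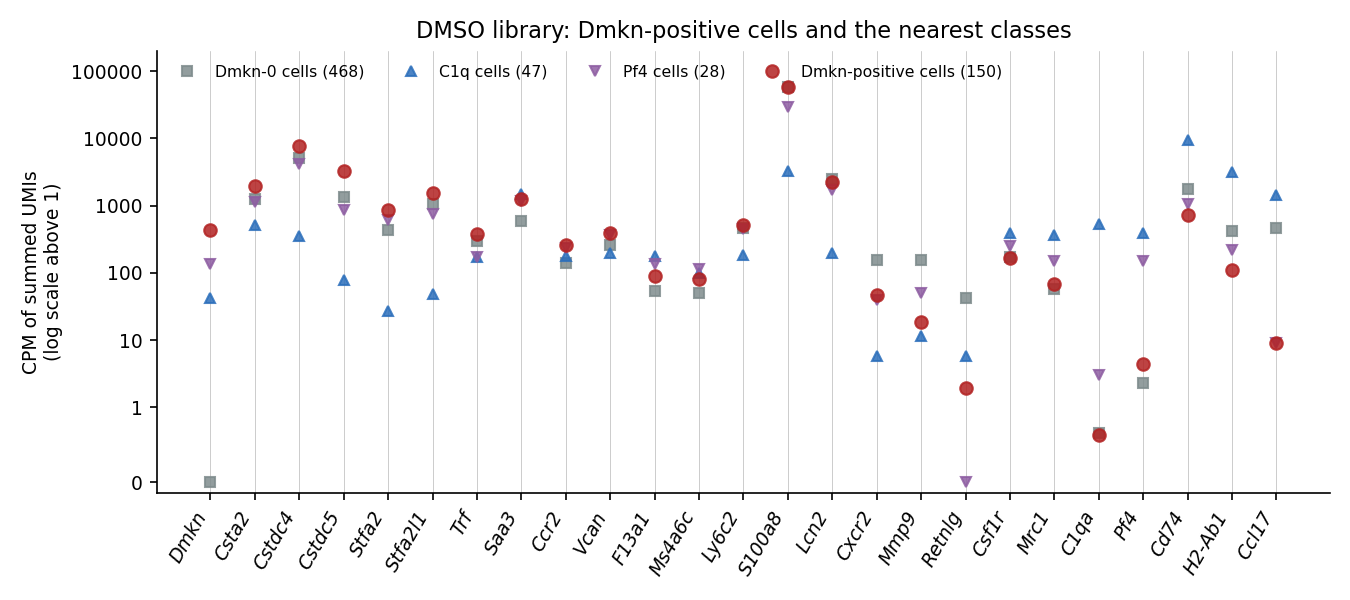
Levels of 25 genes (x axis) as CPM of summed UMIs (y axis, logarithmic above 1) in the Dmkn-positive cells of the DMSO library (150 cells, circles), Dmkn-0 cells (468, squares), C1q cells (47, triangles up) and Pf4 cells (28, triangles down). The 5 stefin genes are highest in the Dmkn-positive cells, C1q cells have the highest Cd74, H2-Ab1 and Ccl17, and Mmp9, Cxcr2 and Retnlg are highest in Dmkn-0 cells.

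Shares of cells with a UMI of some monocyte or late neutrophil genes differed from those of Dmkn-0 cells at equal depth beyond counting error. Both sets of genes are parts of longer lists that were chosen with earlier results of these data known. Ly6c2 and Csf1r of the monocyte list and S100a8 and S100a9 of the late neutrophil list, which were near even, are not in them. The shares therefore describe the named genes and not the lists. With every cell thinned to 2000 UMIs, 70.7% of the Dmkn-positive cells had a UMI of Ccr2, F13a1, Vcan or Ms4a6c (62.7% to 77.8%), against 38.0% of Dmkn-0 cells (33.6% to 42.6%). Before thinning the shares were 97.3% and 56.2%. Non-cycling specific granule cells, which should lack these transcripts, had 5.46% thinned and 18.0% unthinned. A UMI of Mmp9, Cxcr2, Retnlg or Ly6g was found in 18 of the 150 Dmkn-positive cells (7.27% to 18.3%) and 44.0% of Dmkn-0 cells (39.5% to 48.7%) after thinning, and in 32.7% and 55.6% before. C1q cells, as a class that should lack them, had 6.38% and 10.6%. A UMI of H2-Aa, H2-Ab1 or H2-Eb1 was found in 10.0% of the thinned Dmkn-positive cells (5.71% to 16.0%) and 16.9% of Dmkn-0 cells (13.6% to 20.6%), whose intervals overlap. Before thinning the shares were 34.0% and 31.2%, in the other order. Specific granule cells, a class that should lack these transcripts, had 10.4% and C1q cells 76.6% after thinning. The thinned share of the pooled Dmkn-positive cells was thus near that of specific granule cells. Before thinning specific granule cells had 19.1% (13.7% to 25.6%), below the 34.0% (26.5% to 42.2%) of the Dmkn-positive cells. The transcripts were also uneven within the group. Thinned H2-Aa stood at 230, 0 and 10 CPM in its sets of low, middle and high S100 share, described further on.

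The number of Dmkn UMIs in a cell was set beside the other genes at equal depth, in cells that pass the other limits, to show what lies on each side of the minimum. In cells with 0, 1, 2, 3 to 4, and 5 or more Dmkn UMIs, Ccr2 stood at 106, 250, 256, 254 and 306 CPM. Cxcr2 stood at 246, 59.2, 25.6, 96.5 and 64.8 CPM. In these genes the 76 cells with 1 UMI, just outside the rule, were close to the 39 with 2, just inside it. Saa3 stood at 416, 592, 1449, 1430 and 963 CPM, and here the step lay between 1 and 2 UMIs. Csta2 had no such order, with 1220, 1974, 1154, 1991 and 2222 CPM, while Cstdc5 went from 1076 and 1704 CPM to 3359, 2807 and 4213 CPM. H2-Ab1 stood at 294, 283, 103, 26.3 and 74.1 CPM, where cells with 1 UMI matched those with 0.

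**Figure D3:**
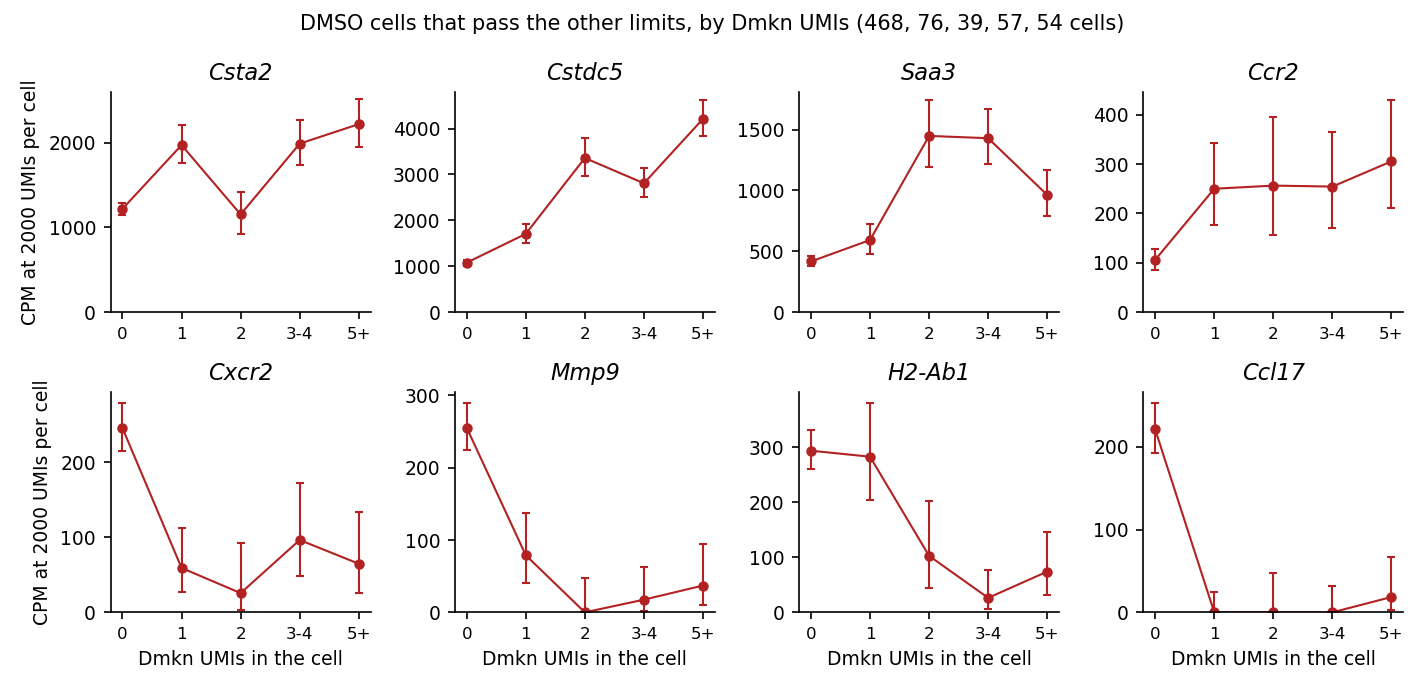
Levels of 8 genes at 2000 UMIs per cell (CPM, y axes) in DMSO cells that pass the other limits, by the number of Dmkn UMIs (x axes; 468, 76, 39, 57 and 54 cells), with 95% exact Poisson intervals. Ccr2 is higher and Cxcr2, Mmp9 and Ccl17 are lower in every bin with Dmkn than in the bin at 0, while Csta2 shows no steady order.

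The Dmkn-positive cells differed widely from C1q cells, which are macrophage-type cells with complement C1q transcripts. Of 4404 measured genes 158 (3.59%) stood 2-fold or more above and 552 (12.5%) 2-fold or more below. This balance depends on the scaling. With TMM factors, which align the bulk of genes and shift the median gene by 0.41, 441 were higher and 230 lower. All 8 measured stefin A genes were at least 1.5-fold higher, median 4.95, where 10.1% of all genes were higher and 28.3% lower. Cstdc5 stood at 3311 against 79.0 CPM, a difference of 5.37, and S100a9 at 51740 against 2446 CPM, 4.40. Beside the C1q and Pf4 genes of the rule, the lowest were Ccl17 (−7.16), Plet1 (−5.69), H2-Aa (−5.23) and Mgl2 (−4.99). All 7 MHC class II genes were lower, with Cd74 at 720 against 9315 CPM. C1q cells had Saa3, Ccr2 and F13a1 as well, with Ccr2 at 177 CPM and F13a1 at 179 CPM, so these genes do not set the Dmkn-positive cells apart from them.

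Pf4 cells carry Pf4, Maf or Stab1 above the limit and C1q within it. Of 3935 measured genes 75 (1.91%) stood 2-fold or more above and 108 (2.74%) 2-fold or more below, or 141 and 35 with TMM factors, which shift the median gene by 0.25. Of the stefin A genes 6 of 8 were 1.5-fold higher, median 0.94, where 5.90% of all genes were higher and 14.7% lower. Dmkn stood at 138 CPM in Pf4 cells. Apart from Dmkn and Prtn3, which the rule used, the highest were Plac8 (2.50), Ms4a3 (2.48), the interferon-induced membrane gene Ifitm6 (2.38), Cstdc5 (1.92), Stfa1 (1.80) and the protease inhibitor gene Serpinb1a (1.67). Ms4a3 rested on 4 and Plac8 on 10 UMIs in Pf4 cells. The lowest were macrophage genes such as Mmp12, the macrophage elastase gene (351 against 1268 CPM, −1.85), and the scavenger receptor gene Msr1 (100 against 248 CPM, −1.30). The activin subunit gene Inhba (−1.68), H2-Aa (−1.25), the splicing kinase gene Clk1 (−1.25), Alcam (−1.21), the endocytic adaptor gene Dab2 (−1.19) and Fyb (−1.19) were lower as well.

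Within the group the cells were far from uniform. At 2000 UMIs per cell the variance of S100a9 was 95.6 times its mean, that of S100a8 79.5 times, Cstdc5 41.1 times and Cstdc4 17.3 times, against a median of 1.07 over 1120 genes. The summed share of S100a8 and S100a9 ran from 0.0883% to 35.8% of a cell's UMIs, with a median of 8.69%. At the low end it was close to C1q cells, whose median was 0.156%. The shares of S100 and stefin UMIs of each cell are plotted for both Dmkn-positive and Dmkn-0 cells.

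**Figure D4:**
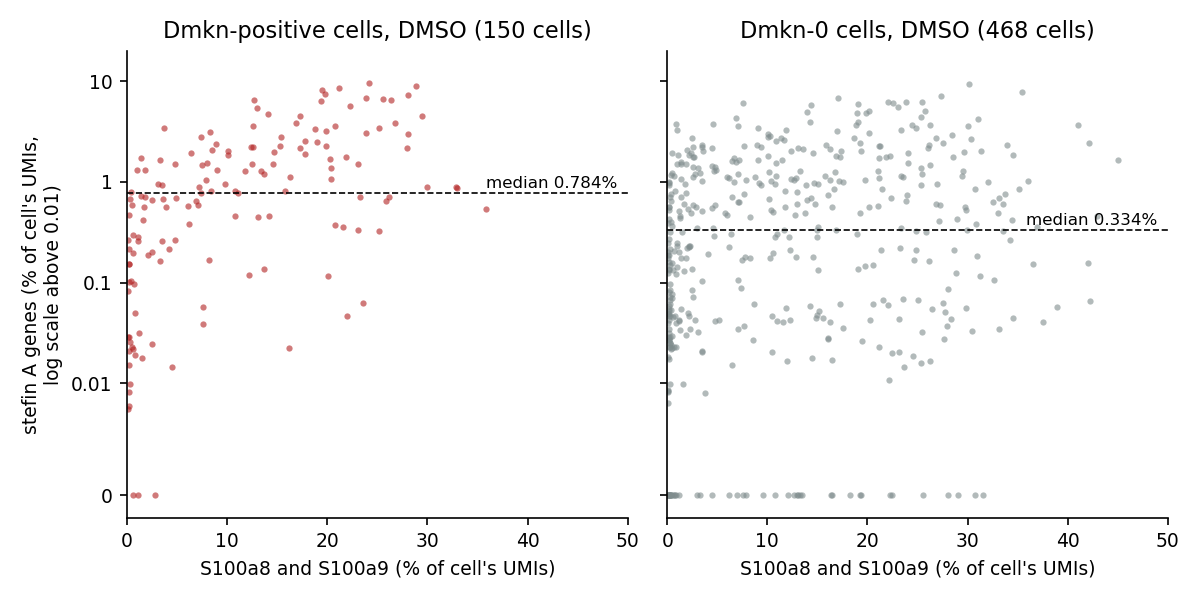
Share of stefin A UMIs (y axis, logarithmic above 0.01%) by share of S100a8 and S100a9 UMIs (x axis) in each DMSO cell, for Dmkn-positive (150) and Dmkn-0 (468) cells, with dashed lines at the medians of 0.784% and 0.334%. Dmkn-positive cells with few S100 UMIs mostly have few stefin UMIs, and Dmkn-0 cells spread over the same area with more cells at 0.

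The 150 cells were ordered by that S100 share and divided into a low, a middle and a high set of 50 to describe this range. The sets are ranges and not types, and 11 and 7 cells lay within 1 percentage point of the limits between them. The low set had shares of 0.0883% to 3.50%, the middle set 3.60% to 15.3% and the high set 15.4% to 35.8%. Depth was alike, with medians of 10100, 11010 and 10080 UMIs, while the genes per cell were 2827, 2604 and 2287. At 2000 UMIs per cell all stefin A genes together stood at 3290, 14660 and 29650 CPM. Cstdc5 stood at 130, 1640 and 8600 CPM, and Stfa2 at 70, 440 and 2200 CPM. The specific granule gene Lcn2, which encodes lipocalin 2, stood at 310, 1830 and 4810 CPM, Ifitm6 at 10, 80 and 660 CPM and the chitinase-like gene Chil3 at 360, 840 and 3000 CPM.

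Several macrophage and antigen presentation genes, named after their values were seen, ran the other way along the same range. Cd74 stood at 1580, 200 and 80 CPM in the low, middle and high sets, and Mmp12 at 1020, 50 and 20 CPM. Lyz2, the lysozyme gene, stood at 4660, 2630 and 1440 CPM, Csf1r at 280, 100 and 70 CPM and Msr1 at 220, 50 and 40 CPM. Adgre1, which encodes a macrophage surface antigen, did not follow this order, at 130, 40 and 100 CPM, with overlapping intervals in the low and high sets. With all UMIs, Mrc1, the mannose receptor gene, was found in 29, 8 and 4 of the 50 cells and Ms4a6c in 24, 26 and 5. Some genes were shared by all sets. Saa3 stood at 1240, 1400 and 1160 CPM, Ly6c2 at 560, 540 and 470 CPM, Vcan at 410, 340 and 290 CPM and F13a1 at 100, 110 and 100 CPM, with overlapping intervals. Ccr2 was lower in the high set, at 370, 300 and 150 CPM, and Cxcr2 was higher there, at 20, 40 and 140 CPM. Dmkn, which the rule requires in every cell and which is therefore present in all sets, stood at 360, 300 and 630 CPM. The group thus ran from stefin-poor cells with more Mmp12, Csf1r and Mrc1 to stefin-rich cells with S100 genes and Lcn2, and it was given no cell type name. Doublets were not removed, and their part in this range was not tested.

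**Figure D5:**
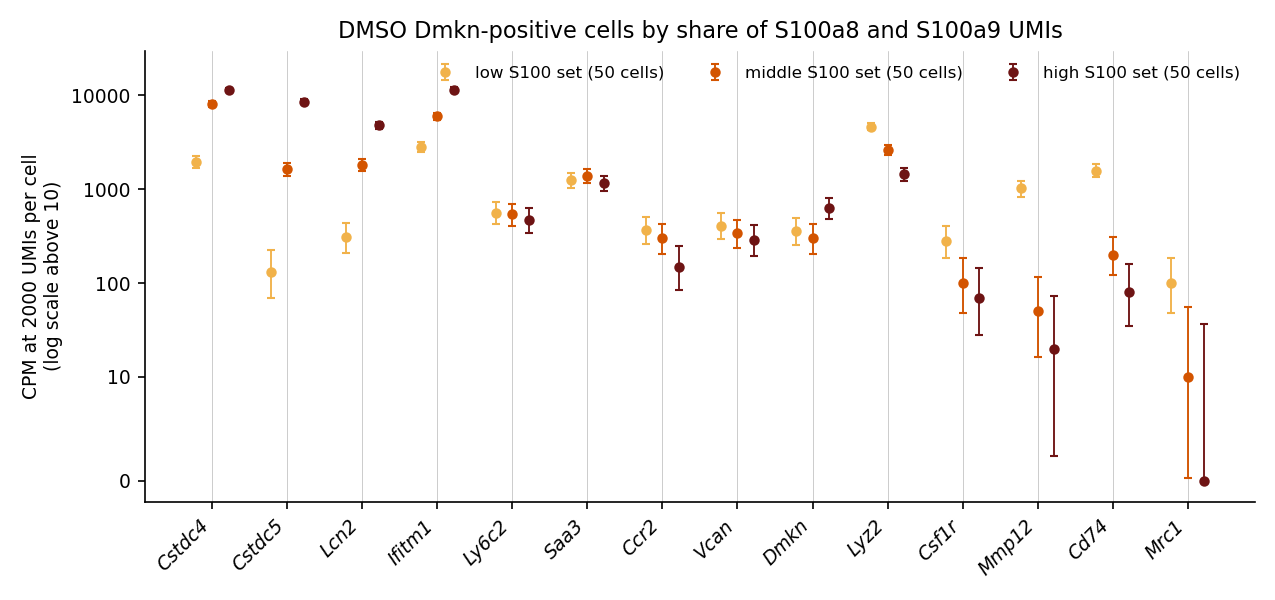
Levels of 14 genes at 2000 UMIs per cell (CPM, y axis, logarithmic above 10) in the low, middle and high sets of the 150 DMSO cells by share of S100a8 and S100a9 UMIs, with 95% exact Poisson intervals. Cstdc4, Cstdc5, Lcn2 and Ifitm1 are highest in the high set, Lyz2, Csf1r, Mmp12, Cd74 and Mrc1 in the low set, and Ly6c2, Saa3 and Vcan overlap in all 3.

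The 7 Selinexor cells gave 77665 UMIs in all and were mixed among themselves. Their Dmkn counts were 2 in 5 cells, 3 in 1 and 4 in 1. Cstdc4 had 105 and 71 UMIs in 2 cells, 2 UMIs in each of 2 and 0 in 3, and Csta2 was found in 4 of 7 with 53 UMIs in 1 cell. Csta3 was at 0 in all 7 and Ccr2 had 1 UMI in each of 2 cells. The median stefin share was 0.0291% and the highest 3.80%. Thus 2 of the 7 cells carried most of the Cstdc4 UMIs.

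Against the DMSO cells, 216 of 3453 measured genes (6.26%) stood 2-fold or more above in the 7 Selinexor cells and 564 (16.3%) 2-fold or more below. Xpo1, which encodes the target exportin 1, stood at 219 against 46.5 CPM, a difference of 2.21 (1.38 to 3.01), with a UMI in 6 of 7 cells. Ccl4 (3.54), Gng12 (2.65), the ferritin receptor gene Ncoa4 (2.61, in 7 of 7 cells), Il1rn (2.46), Pou2f2 (2.39) and Slc16a6 (2.19) followed, and Ngp (2.48) is a gene of the rule. Vrk1, Dhrs7, Etfa and March1 had 0 UMIs in the 7 cells and 143, 124, 120 and 121 in the DMSO cells. With 3 counts over the 7 cells as the floor they were at least 2.36-fold, 2.05-fold, 1.98-fold and 2.00-fold lower. H2-Ab1 was at least 2.82-fold, Ms4a6c at least 2.10-fold, H2-Aa at least 1.96-fold and Oip5os1 at least 1.88-fold lower in the same way. With all UMIs, 3 of the 7 cells and 51 of the 150 DMSO cells had a UMI of H2-Aa, H2-Ab1 or H2-Eb1.

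A wider comparison of the cells that pass every limit other than Dmkn, 359 Selinexor and 694 DMSO cells, does not rest on 7 cells. It still leaves out the Fn1 cells, 405 in the Selinexor and 81 in the DMSO library, so the kinds of cell removed differ between the sides. There 7 of 8 measured stefin A genes stood 1.5-fold or more below in the Selinexor library and 0 above, with a median of −1.91, where 6.42% of all genes were lower, 16.6% higher and the median was 0.13. Cstdc4 stood at 1058 in the Selinexor against 6168 CPM in the DMSO library, −2.54, and Cstdc5 at 359 against 2021 CPM, −2.49. Csta2 stood at 369 against 1595 CPM, −2.11, and Stfa3 was near even at 216 against 230 CPM. Csta3 had 0 UMIs against 134. Saa3 (241 against 807 CPM, −1.74), Trf (136 against 332 CPM, −1.28) and Ccr2 (97.1 against 187 CPM, −0.94) were lower too. MHC class II genes lay the other way than in the 7 cells. Of 7 measured genes 5 were 1.5-fold or more higher in the Selinexor library and 0 lower, with a median of 0.62. Each side is 1 culture, and culture and treatment cannot be told apart.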

How the data were processed

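The authors deposited raw UMI counts for each gene in each barcode. The header of each matrix names Cell Ranger 6.1.2, and the submitters' processing notes name mm10 as the build. How barcodes were called is not given in the sources used here. Tag counts stayed out of all totals (32285 genes, 12 tags), and 0 columns of other samples were present. Cells were chosen by the rule at the opening of the report. UMIs were summed over cells, scaled to CPM and compared as log2(CPM + 1). A gene with 50 UMIs over both sides counts as measured. A 2-fold difference is counted over single genes and a 1.5-fold difference in the 43 gene lists. Thinning drew 2000 UMIs from each cell. Intervals are exact (Poisson, conditional binomial, Clopper-Pearson) and cover counting error only. Members and lists were chosen with earlier results of these data known.

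Genes named are the 5 markers and stefin A genes, the 15 most abundant genes, the 15 highest and lowest against the other cells and the 8 against each nearest class (100 UMIs over both sides and 50 CPM on 1 side), up to 4 per list, defining markers at or near 0, and the 8 highest and lowest between the members of the libraries. The ranked choices skip unnamed genes and those of mitochondria, ribosomal proteins (by Rpl and Rps symbols) and haemoglobin. Genes beyond this rule, among them those shown along the S100 range and Calr, Hspa5 and Xbp1, were named after their values were seen. Doublets were in effect not removed, since Scrublet in scanpy 1.11.5 marked 6 of 3710 cells (0.162%) and 0 members. Coordinates come from GENCODE (15 of 15 genes matched) and promoter stretches from RefSeq. Other tools were Python 3.11.15, scipy 1.17.1 and edgeR 4.0.16 in R 4.3.3 for scaling factors. The comparison script was tested on simulated counts. Alternatives changed the Dmkn minimum, depth, mitochondrial limit, weighting, scaling, count minimum and pseudocount. A gene of the monocyte list is not reported here by name.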

Additional observations from a re-analysis of the deposited data

How the results depend on the processing

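No paired analysis was possible because each group holds 1 library, and for the same reason no replicate could be left out. With a minimum of 1 Dmkn UMI the rule took 226 DMSO cells (15.82%) and 28 Selinexor cells (2.365%), and with 3 UMIs 7.768% of DMSO cells and 2 Selinexor cells (0.1689%). When cells were thinned before the rule it took 43 (3.009%) and 1 (0.08446%). Counts of genes 2-fold higher or lower moved by over 1.5 times as follows. Against the other cells (21 higher, 714 lower) the higher count was 47 thinned, 44 with cells weighted equally, 33 with median-of-ratios scaling and 55 at a minimum of 20 UMIs. It was 6 with 308 lower at 200 UMIs, and 4 with 195 lower at a pseudocount of 10. Against Dmkn-0 cells (11 and 144) the higher count was 32 thinned, 22 with TMM and 17 with median of ratios, and the lower count was 88 in cells of 4000 UMIs or more. The pairs were 77 and 252 with equal weights, 61 and 334 at 20 UMIs, 3 and 29 at 200 UMIs, and 4 and 42 at a pseudocount of 10. Without cells holding late neutrophil, Ccl17 or MHC class II UMIs, a setting chosen after seeing the data, they were 5 and 22, and Plet1 was 0.55 instead of −2.63. Against C1q cells (158 and 552) they were 91 and 89 thinned, 441 and 230 with TMM, 452 and 226 with median of ratios, 301 and 1151 at 20 UMIs, and 62 and 102 at 200 UMIs. Against Pf4 cells (75 and 108) they were 36 and 14 thinned, 141 and 35 with TMM, 129 and 43 with median of ratios, 264 and 360 at 20 UMIs, 16 and 13 at 200 UMIs, and 34 and 52 at a pseudocount of 10. The minimum counts, thinning and the settings that leave out cells change how many genes are measured. Beyond this, the cause was not tested. Values of single genes were judged by their counting interval and list medians, which have no interval, by a fixed shift of the median. By these criteria 1292 values stayed the same, 273 moved further and 1, that of Plet1, changed sign. Genes with few UMIs in the 28 Pf4, 47 C1q or 7 Selinexor cells are limited by depth.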
